A study of Mus musculus with 4 samples.

Results

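Markers of macrophages and other leukocytes, 10 genes in all, were followed in RNA-seq of mouse heart: Cd68, Csf1r, Mrc1, Lyz2, C1qa, C1qb, Ptprc, Cd163, Lyve1 and Cd3e. They were chosen by name, and all 10 were found among the 23337 gene symbols of each library. PIMT, the protein encoded by Tgs1, methylates the cap of small RNAs and binds transcriptional coactivators. Control animals, PIMT fl/fl, had exons 3 and 4 of this gene between loxP sites, and csPIMT-/- mice carried the same floxed alleles together with a Cre recombinase driven in cardiomyocytes by the α-myosin heavy chain promoter. Both genotypes were on a C57BL6/J background and were taken at 2 and at 6 months of age. RNA from the hearts of 5 mice, male and female together, was pooled into 1 library per genotype and age, so there were 4 libraries and no replicates. By this design the deletion is aimed at cardiomyocytes and not at the leukocytes whose markers are described here.

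The heart holds macrophages that settle before birth and others that arise from blood monocytes. Signalling through the CSF1 receptor keeps both alive, and they clear debris by way of scavenger receptors, lysosomal enzymes and complement. In RNA from whole heart, a marker gene reports both how many such cells were present and how much RNA each made, and these cannot be told apart.

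Values are normalized counts, that is, reads on a gene divided by the size factor that the authors gave the library. A single read was worth 0.865 to 1.23 normalized counts depending on the library, and division by that worth gave between 29823073 and 40705783 reads on genes. A ratio is the csPIMT-/- library over the PIMT fl/fl library of the same age. Its 95% Clopper-Pearson interval comes from the 2 read numbers and covers counting error only, not the variation between mice or pools. No p-value is given at a single age. Tgs1 itself had 580 and 816 normalized counts in the PIMT fl/fl hearts at 2 and 6 months, against 160 and 162 in csPIMT-/- hearts. Both csPIMT-/- libraries were therefore lower, with ratios of 0.276 (0.227 to 0.334) at 2 months and 0.199 (0.167 to 0.236) at 6 months. With the trend of all ratios in GC content subtracted, these ratios were 0.599 and 0.493, and the log2 difference over both ages was -0.86 instead of -2.09. Ttn, the sarcomere protein titin, took the largest share of reads in each library, 5.42% and 6.84% in the controls against 2.91% and 1.90% in the csPIMT-/- libraries of 2 and 6 months. All 10 cardiomyocyte markers checked were read in every library. They summed to 3438445 and 3993943 normalized counts in the controls and to 2777319 and 2167486 in the csPIMT-/- libraries. Gene by gene, however, the median of their 10 ratios stood at 1.10 in the younger pair of libraries and 0.847 in the older pair. In the younger pair 1 of the 10 was above 2 and 1 below 0.5, and in the older pair 0 and 2. The lower sums therefore do not stand for a like fall of every cardiomyocyte marker. Their part in the ratios of the leukocyte markers was not tested.

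The libraries also differed in markers of tissues other than ventricle, and these differences did not follow genotype alone. The 7 atrial markers summed to 42645 normalized counts in the 2-month PIMT fl/fl library, 129607 in the 6-month PIMT fl/fl library, 348688 in the 2-month csPIMT-/- library and 355328 in the 6-month csPIMT-/- library. Gene by gene, all 7 had a ratio above 2 at 2 months (median 41.0). At 6 months 1 of the 7 was above 2 and 4 were below 0.5 (median 0.499). From 2 to 6 months in csPIMT-/- hearts, 6 of the 7 were more than 2-fold lower (median 0.266). The sums therefore do not stand for every atrial marker. Bmp10, a defining atrial gene, had 5.19 normalized counts in the 2-month control and 6296 in the 6-month control. White fat markers summed to 118 and 4914 in the 2 controls and to 16876 and 2560 in the csPIMT-/- libraries of 2 and 6 months. The 2-month csPIMT-/- library was also the highest for brown fat (4535, against 1283 to 2893 in the others), lung (1345, against 45.7 to 266) and mesothelium (2270, against 533 to 733). Erythroid and platelet markers summed to 5659 and 4642 in the younger and older controls and to 4045 and 15330 in the csPIMT-/- libraries. At 6 months 3 of the 7 tested had a ratio above 2 and 0 below 0.5. The 2-month PIMT fl/fl library thus stood apart by low atrial and white fat markers, and the 2-month csPIMT-/- library by high fat, lung and mesothelial markers. The 6-month csPIMT-/- library had the highest sum of blood markers. What part of the differences below goes with these tissues was not tested, and the counts of markers past 2-fold are also given against the control of the other age, and the calls over both ages without single libraries.

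**Figure D1:**
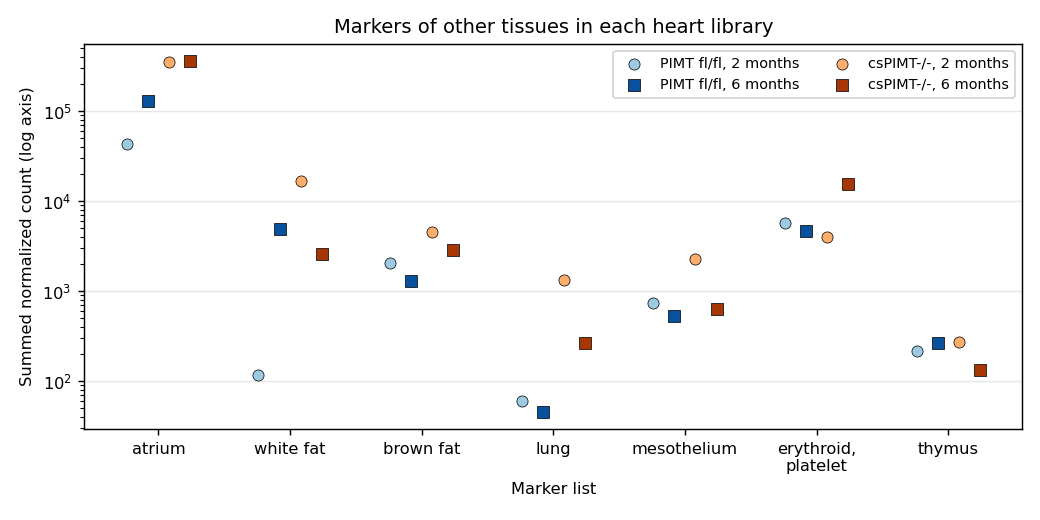
Summed normalized counts (log axis) of marker lists of other tissues, 1 point per library, with circles for 2 months and squares for 6 months. The 2-month PIMT fl/fl library was lowest for atrium (42645) and white fat (118), and the 2-month csPIMT-/- library was highest for white fat (16876), brown fat (4535), lung (1345) and mesothelium (2270). The 6-month csPIMT-/- library was highest for erythroid and platelet markers (15330).

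The complement subunits C1qa and C1qb were higher in csPIMT-/- hearts at both ages. C1q is the recognition subunit of the classical complement pathway, and in most tissues macrophages are its main source. C1qa had 2303 and 5195 normalized counts in PIMT fl/fl hearts at 2 and 6 months, against 8302 and 12325 in csPIMT-/- hearts. C1qb had 1789 and 3711 in the controls, and 5969 and 9083 in the csPIMT-/- libraries. For both genes the csPIMT-/- libraries lay above both controls, whichever ages were set against each other. The ratio of C1qa was 3.61 (3.45 to 3.77) at 2 months and 2.37 (2.30 to 2.45) at 6 months. That of C1qb was 3.34 (3.17 to 3.51) and 2.45 (2.36 to 2.54). C1qc, which encodes the remaining chain of C1q and is no member of the set, had ratios of 3.49 and 2.27. The 3 genes lie side by side on chromosome 4 of GRCm38, C1qa at chr4:136895917-136898803, C1qc at chr4:136889804-136893065 and C1qb at chr4:136880129-136886187, all on the minus strand. Within each library they kept nearly the same proportions: reads of C1qa were 1.29, 1.40, 1.39 and 1.36 times those of C1qb in the 2- and 6-month controls and the 2- and 6-month csPIMT-/- libraries, and from 1.15 to 1.24 times those of C1qc.

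Lyz2 and Cd68 mark the lysosome of the phagocyte. Lyz2, lysozyme 2, is made by macrophages, monocytes and neutrophils, and its gene lies at chr10:117277331-117282321 on the minus strand. It had 2195 and 8315 normalized counts in the younger and older controls, and 10382 and 13849 with the deletion. The 2-month control was far below the other 3 libraries, so that the ratio was 4.73 (4.52 to 4.95) at 2 months and 1.67 (1.62 to 1.71) at 6 months. The 2-month csPIMT-/- library was 1.25 times the 6-month control. The close copy Lyz1, with which reads could be exchanged, had between 0.946% and 1.78% of the normalized count of Lyz2. Cd68, a glycoprotein of late endosomes and lysosomes (chr11:69664213-69666153, minus strand), had 178 and 345 normalized counts in the controls and 721 and 744 in the csPIMT-/- libraries. Its 2 csPIMT-/- values were close together and both more than 2-fold above either control: the lowest csPIMT-/- value was 2.09 times the highest control value, the widest such gap among the 9 genes with at least 10 reads in every library. The ratios of Cd68 were 4.05 (3.45 to 4.77) at 2 months and 2.16 (1.90 to 2.45) at 6 months.

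Csf1r, the receptor for CSF1 and IL34, had 3363 and 6379 normalized counts in the controls and 8607 and 10845 in the csPIMT-/- libraries. The groups did not overlap, and the ratios were 2.56 (2.46 to 2.66) and 1.70 (1.65 to 1.75). Csf1r lies on the plus strand of chromosome 18 (chr18:61100598-61132149, GRCm38), and 15.1% of its exon bases are shared with Hmgxb3 on the opposite strand. Whether the counting used strand is not given in the sources used here, so reads on those bases cannot be assigned with certainty. Of its ligands, Csf1 had a ratio of 1.84 at 2 months and 0.859 at 6 months, and Il34 had ratios of 2.47 and 3.06.

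The scavenger and endocytic receptors Cd163, Mrc1 and Lyve1, which are used as markers of tissue-resident macrophages, did not differ alike at the 2 ages. Cd163, the receptor for haemoglobin bound to haptoglobin (chr6:124304656-124330527, plus strand), had 358 and 1274 normalized counts in the controls and 895 and 1527 in the csPIMT-/- libraries. The groups overlapped, because the 6-month control was above the 2-month csPIMT-/- library, which was 0.702 times as high. The ratio of Cd163 was 2.50 (2.21 to 2.83) at 2 months and 1.20 (1.11 to 1.29) at 6 months. Mrc1, the mannose receptor CD206 (chr2:14229392-14332057, plus strand), had 3585 and 4520 in the controls and 3338 and 5086 in the csPIMT-/- libraries, the narrowest range of the 10 genes. Its ratio was 0.931 (0.887 to 0.977) at 2 months and 1.13 (1.08 to 1.17) at 6 months. Lyve1, a hyaluronan receptor of lymphatic endothelium and of some resident macrophages (chr7:110850607-110863239, minus strand), had 730 and 1324 in the controls and 852 and 2792 in the csPIMT-/- libraries. The 6-month csPIMT-/- library was the only one clearly apart for Lyve1, with a ratio of 2.11 (1.98 to 2.25), against 1.17 (1.05 to 1.29) at 2 months. Set against Csf1r within each library, Mrc1 was at 107% and 70.9% of the normalized count of Csf1r in the controls and at 38.8% and 46.9% in the csPIMT-/- libraries.

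Ptprc went the other way. It encodes CD45, the tyrosine phosphatase on the surface of nearly all leukocytes, and lies at chr1:138062861-138175708 on the minus strand. It had 412 and 948 normalized counts in the controls and 219 and 420 in the csPIMT-/- libraries. At each age the csPIMT-/- library was the lower one, with ratios of 0.533 (0.446 to 0.634) at 2 months and 0.443 (0.394 to 0.497) at 6 months, although the 6-month csPIMT-/- library was 1.02 times the 2-month control. The normalized count of Csf1r was 8.16 and 6.73 times that of Ptprc in the controls and 39.2 and 25.8 times in the csPIMT-/- libraries. Csf1r and Ptprc thus had ratios on opposite sides of 1 at both ages, but not with the GC trend subtracted, when Ptprc was at 1.45 and 1.31 and Csf1r at 1.78 and 1.15.

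Cd3e, a chain of the T cell receptor complex (chr9:44998740-45009627, minus strand), was barely read. It had 1 read in each control and 6 and 13 reads in the younger and older csPIMT-/- hearts, that is, between 0.865 and 13.5 normalized counts. The ratio was 8.55 (1.04 to 393) at 2 months, where no library reached 10 reads, and 15.4 (2.31 to 654) at 6 months, where Cd3e passed that minimum only through the csPIMT-/- library. Of the 3 remaining CD3 chains, Cd3d had between 3.52 and 11.4 normalized counts, Cd3g between 7.92 and 20.8, and Cd247 between 43.2 and 75.3.

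**Figure D2:**
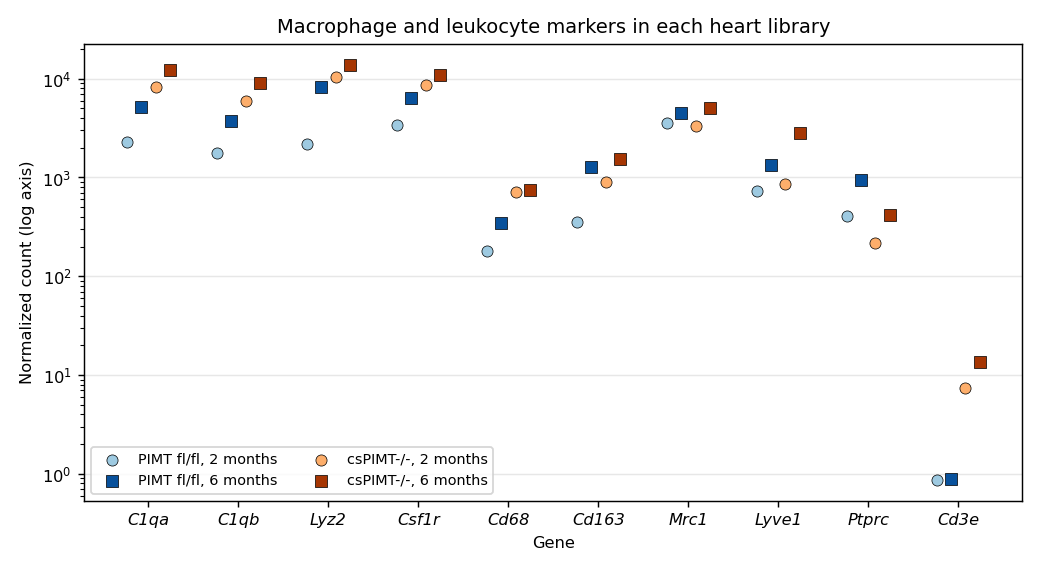
Normalized counts (log axis) of the 10 markers, 1 point per library, with circles for 2 months and squares for 6 months. The 2-month PIMT fl/fl library was lowest for 8 of the 10 genes and the 6-month csPIMT-/- library highest for 9, and Ptprc was lower in the csPIMT-/- library at each age.

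To compare levels between genes, reads were also divided by the length of the longest transcript and scaled to the same library total. On this scale of reads per length (RPKM), C1qa, Lyz2 and C1qb were the 3 highest in every library, from 47.7 to 315. Csf1r followed with 20.7 and 37.9 in the controls and 49.8 and 61.3 in the csPIMT-/- libraries. Mrc1 stood just below Csf1r in the 2-month control, at 19.3, and Cd68 was at 4.20 and 7.83 in the controls and at 15.9 and 16.1 in the csPIMT-/- libraries. Ptprc, at 1.04 to 4.61, was the ninth in each library and Cd3e, at 0.00963 to 0.141, was last. With 1 library per group, the spread that would separate neighbours in this order is not known.

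At 2 months, 6 of the 9 genes with enough reads had a ratio above 2 (C1qa, C1qb, Lyz2, Cd68, Csf1r and Cd163) and none had a ratio below 0.5. Over all 15152 genes tested, 17.3% were above 2 and 22.5% below 0.5. The median ratio was 2.56 over the 9 genes and 0.997 over all genes. At 6 months, 5 of 10 were above 2 (C1qa, C1qb, Cd68, Lyve1 and Cd3e) and 1, Ptprc, was below 0.5, beside 16.9% and 24.9% of the 15218 genes tested. The median was then 1.90, against 1.002 over all genes. Without Cd3e, which had only 1 read in the control and was left out after its values were seen, it was 4 of 9 above 2 and a median of 1.70. Against the control of the other age, only Cd68 of the 2-month csPIMT-/- library was still above 2 apart from Cd3e, which had too few reads, and Ptprc was at 0.231, beside 14.8% of the 15171 genes tested above 2 and 25.1% below 0.5. The 6-month csPIMT-/- library against the 2-month control gave 8 of 10 above 2, or 7 of 9 without Cd3e, and 0 below 0.5, beside 19.0% and 21.4% of 15209 genes.

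**Figure D3:**
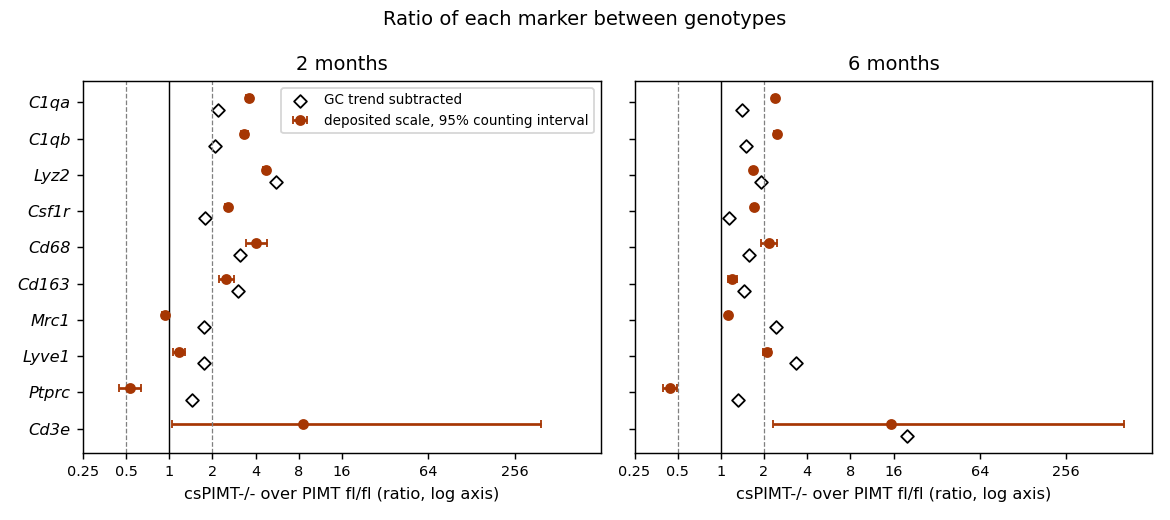
Ratio of csPIMT-/- over PIMT fl/fl (log axis) for the 10 markers at 2 and 6 months, with filled circles and bars for the ratio and its 95% counting interval and open diamonds for the ratio after subtraction of the GC trend. Dashed lines mark 0.5 and 2. Ptprc, at 0.533 and 0.443, was on the left of 1 before the subtraction and on its right after it, at 1.45 and 1.31.

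Over both ages, limma with age and genotype as terms gave 5 of 9 genes higher in csPIMT-/- hearts at an adjusted p below 0.05 and none lower, beside 11.0% higher and 17.5% lower of the 14847 genes tested. The 5 that rose were C1qb (log2 difference 1.51, SE 0.22, adjusted p = 0.0177), C1qa (1.55, SE 0.24, adjusted p = 0.0187), Cd68 (1.56, SE 0.34, adjusted p = 0.0326), Csf1r (1.06, SE 0.24, adjusted p = 0.0331) and Lyz2 (1.49, SE 0.39, adjusted p = 0.0460). These are also the 5 genes whose csPIMT-/- libraries both lay above both controls, which held for 35.2% of all genes tested, while none of the 9 had both libraries below, against 35.9%. Ptprc just missed the threshold, with a log2 difference of -1.04 (SE 0.28, adjusted p = 0.0502). Cd163 (0.79, adjusted p = 0.131), Lyve1 (0.65, adjusted p = 0.149) and Mrc1 (0.03, SE 0.21, adjusted p = 0.912) did not pass either, and Cd3e was too low to be tested. At an unadjusted p below 0.05 there were 5 higher and 1 lower, the latter being Ptprc, beside 20.7% and 24.7% of genes. edgeR's quasi-likelihood test on the recovered reads called 4 higher and none lower, beside 11.0% and 17.0% of genes, since Lyz2 had an adjusted p of 0.05003. DESeq2 called 5 higher and 1 lower, Ptprc, beside 15.4% and 21.0%. With 4 libraries and 3 coefficients there was 1 residual degree of freedom, so departure from additivity of age and genotype stands in for replicate error. In limma that departure was moderated by a prior with 4.01 degrees of freedom, estimated over all genes. The p-values therefore do not measure the spread between mice or between pools of the same genotype and age.

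The calls over both ages changed with the age term and with single libraries. With all 4 libraries and no age term, limma called 3 of the 9 higher (C1qa, C1qb and Cd68) and none lower, beside 12.8% and 18.2% of genes. The fits without a library also have no age term. Without the 2-month PIMT fl/fl library 0 of the 9 genes were called, beside 2.08% of genes called higher and 9.19% lower, and the log2 differences were 0.99 for C1qb, 0.96 for C1qa, 1.08 for Cd68, 0.60 for Csf1r and 0.53 for Lyz2 (adjusted p from 0.110 to 0.317 by limma). At an unadjusted p below 0.05 there were then 3 higher and 1 lower, and Cd163 stood at -0.12. Without the 6-month PIMT fl/fl library the same 5 genes were called, at 1.52 to 2.45, beside 3.0% of genes called higher and 3.32% lower. Without the 2-month or the 6-month csPIMT-/- library 0 were called (5 and 1 higher, 0 and 1 lower at an unadjusted p below 0.05), with differences of 1.23 to 1.83 and of 0.89 to 1.54 for the 5 genes, beside 7.63% and 5.19% of genes called higher and 12.4% and 13.7% lower. Their sign was positive in each of these fits.

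The ratio followed the base composition of the transcript. Over all genes the log2 ratio rose with GC content, and Spearman's rho was 0.581 (2 months) and 0.607 (6 months), given as a description across genes since all genes share the same libraries. The GC content of the longest transcript was 59.5% for C1qa, 57.4% for C1qb, 54.5% for Csf1r, 52.9% for Cd68, 48.3% for Lyz2, 47.9% for Cd163, 45.8% for Lyve1, 44.5% for Cd3e, 43.4% for Mrc1 and 39.4% for Ptprc. The 4 genes above 50% were all called higher over both ages, and Ptprc, the lowest in GC, was the only one with both ratios below 1. Among all genes of 35 to 40% GC, the class of Ptprc, the median ratio was 0.332 at 2 months and 0.312 at 6 months, and 71.4% and 74.1% of genes were below 0.5. Ptprc, at 0.533 and 0.443, was thus above the median of its class. Among genes of 55 to 60% GC, the class of C1qa and C1qb, the median was 1.66 and 1.65, and 33.5% and 32.5% of genes were above 2.

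**Figure D4:**
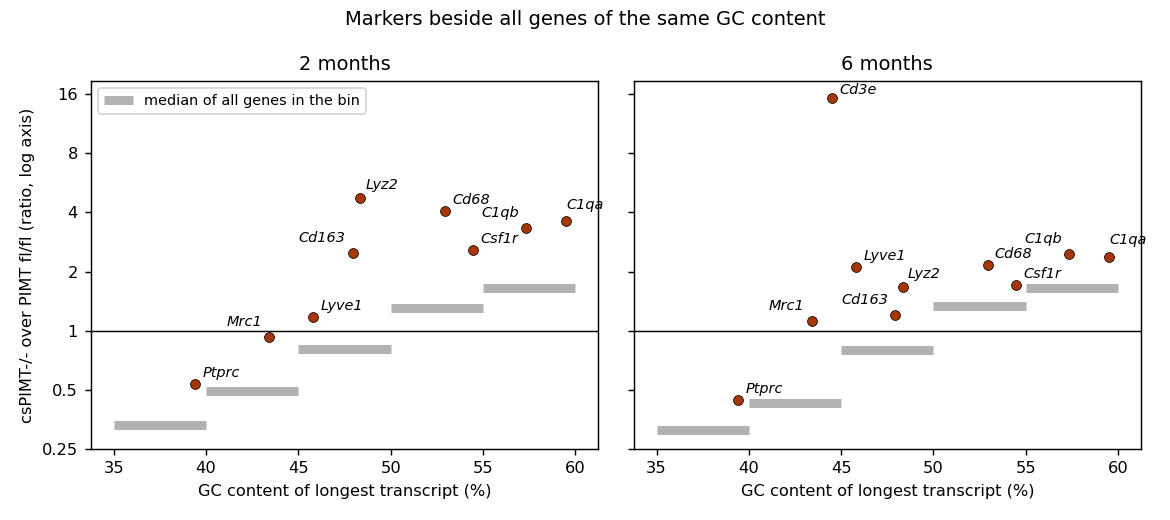
Ratio of csPIMT-/- over PIMT fl/fl (log axis) of each marker with at least 10 reads against the GC content of its longest transcript (%), with grey bars for the median of all genes in each 5-point class of GC content. The bars climbed from 0.332 to 1.66 at 2 months and from 0.312 to 1.65 at 6 months, and each marker lay above the bar of its own class.

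With the GC trend subtracted, each of the 9 genes tested at 2 months and each of the 10 at 6 months, Cd3e with its few reads among them, had a ratio above 1. The median was 2.08 at 2 months and 1.54 at 6 months, against 1.01 over all genes at each age. Lyz2 then led at 2 months with 5.52, followed by Cd68 with 3.11 and Cd163 with 3.03. C1qa was then at 2.18 and 1.40, C1qb at 2.08 and 1.50, and Csf1r at 1.78 and 1.15. Mrc1 was at 1.75 and 2.41, and Lyve1 at 1.73 and 3.33, both further from 1 than before. Ptprc changed direction, to 1.45 and 1.31. In the limma fit on values with the trend subtracted, 0 of the 9 genes and 0 of the 13469 genes tested were called at an adjusted p below 0.05. At an unadjusted p below 0.05 it gave 7 of the 9 higher and none lower, with 1834 genes higher and 1656 lower in all. What part of the trend is in the hearts and what part in the libraries was not tested.

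The same markers also differed between the libraries of 2 and 6 months. Each age was 1 pool per genotype, so age cannot be told apart from other differences between pools, such as those in atrial and fat markers. From 2 to 6 months in PIMT fl/fl hearts, 5 of 9 genes were more than 2-fold higher and none lower, beside 9.01% and 4.65% of the 15132 genes tested, and the median ratio was 2.07 against 1.05 over all genes. Lyz2 was 3.79 (3.63 to 3.96) times higher in the older control, Cd163 3.56 (3.19 to 3.98), Ptprc 2.30 (2.06 to 2.57), C1qa 2.26 (2.15 to 2.36) and C1qb 2.07 (1.97 to 2.19). Mrc1, at 1.26 (1.21 to 1.31), differed least of the 9. The log2 ratios of the controls also followed GC content over all genes (Spearman's rho -0.261). With that trend subtracted, 4 of 9 were above 2 and the median was 1.95. Lyz2 was then at 3.66, Cd163 at 3.41, Ptprc at 1.73 and Mrc1 at 1.06. These differences between 2 pools of the same genotype were as large as several of those between genotypes. In csPIMT-/- hearts 1 of 10 genes, Lyve1, was past 2-fold with age, at 3.28 (3.01 to 3.57), beside 9.71% of the 15057 genes tested above 2 and 8.2% below 0.5. Cd68 stayed at 1.03 (0.923 to 1.15), Csf1r at 1.26 (1.22 to 1.30) and Lyz2 at 1.33 (1.30 to 1.37). For C1qa, C1qb, Csf1r, Cd68, Lyz2, Cd163 and Ptprc the step with age was smaller in csPIMT-/- than in control hearts, and that difference was not tested.

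Promoter sequences were taken from RefSeq (GRCm38.p6), whose table held 8 promoters of 7 of the 10 genes. The 250 bases before each start were searched on both strands for GAGGAA, the core of sites bound by PU.1, a transcription factor of myeloid cells. A match was found in 5 of the 8 (Cd68, Mrc1, C1qb, Cd3e and 1 of 2 for Ptprc), beside 23.3% of all 32851 promoters in the table. Lyz2, Cd163 and the other promoter of Ptprc had none. Mrc1 held 3 matches, starting 180, 167 and 35 bases before the start. The promoters below belong to C1qb and Cd68, which rose, to Ptprc, which had ratios below 1, and to Cd163, which has no match. They are printed 5′ to 3′ on the strand of the gene, with matches in capitals (on the opposite strand the letters read TTCCTC). A match is a description of the letters and not a bound site.
C1qb, chr4:136886201-136886450, minus strand: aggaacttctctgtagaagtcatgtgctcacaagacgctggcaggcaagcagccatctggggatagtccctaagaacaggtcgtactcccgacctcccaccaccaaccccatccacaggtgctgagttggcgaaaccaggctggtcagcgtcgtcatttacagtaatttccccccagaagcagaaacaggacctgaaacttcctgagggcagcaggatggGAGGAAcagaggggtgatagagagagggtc
Cd68, chr11:69666171-69666420, minus strand: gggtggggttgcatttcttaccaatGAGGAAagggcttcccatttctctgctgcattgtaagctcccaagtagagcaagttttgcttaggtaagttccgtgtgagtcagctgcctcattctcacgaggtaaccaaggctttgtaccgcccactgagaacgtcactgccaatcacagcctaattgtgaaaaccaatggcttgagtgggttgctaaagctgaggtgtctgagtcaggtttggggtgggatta
Ptprc, chr1:138175306-138175555, minus strand: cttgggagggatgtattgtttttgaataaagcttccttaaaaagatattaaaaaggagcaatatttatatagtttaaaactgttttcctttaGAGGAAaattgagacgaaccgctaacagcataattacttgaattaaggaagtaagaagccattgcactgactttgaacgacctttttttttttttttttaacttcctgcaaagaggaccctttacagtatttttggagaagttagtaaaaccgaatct
Cd163, chr6:124304401-124304650, plus strand: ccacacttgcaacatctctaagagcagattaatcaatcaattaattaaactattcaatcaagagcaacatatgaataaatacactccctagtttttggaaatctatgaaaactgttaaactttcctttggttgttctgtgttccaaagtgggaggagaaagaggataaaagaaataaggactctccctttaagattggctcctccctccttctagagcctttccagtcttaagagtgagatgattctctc
The match lies 30 bases before the start in C1qb, 225 in Cd68 and 158 in Ptprc, and Cd68 and C1qb, with ratios above 1, and Ptprc, with ratios below 1 that were above 1 with the GC trend subtracted, all hold it.

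Other genes of the macrophage were looked at through lists that hold none of the 10. Over all genes tested, 17.3% and 16.9% were above 2 at 2 and 6 months, and 22.5% and 24.9% were below 0.5. By limma over both ages, 11.0% of all genes were called higher and 17.5% lower. These shares stand beside the counts of each list below. Of 14 general macrophage genes, 5 were above 2 and 0 below 0.5 at 2 months (median ratio 1.67), and 4 and 2 at 6 months (median 1.41). Over both ages limma called 4 of 14 higher and none lower. C1qc rose (log2 difference 1.49, adjusted p = 0.0196), and Lgmn, the lysosomal protease legumain, had a difference of 0.69 (adjusted p = 0.0549). Mpeg1, the pore-forming perforin-2, with ratios of 3.01 and 3.26, and Trem2, a lipid receptor of phagocytes, with ratios of 3.72 and 4.61, were the other named members of the list past 2-fold at both ages besides C1qc, and were picked here after their values were seen. They do not stand for the list, of which 2 genes, not named here, were below 0.5 at 6 months. Of 14 resident macrophage genes, 9 were above 2 at 2 months (median 4.89). At 6 months 2 were above 2 and 1 was below 0.5 (median 1.36), and 3 of 14 were called higher over both ages. Without the 2-month control, 1 general and 0 resident macrophage genes were called higher by limma (2 and 4 at an unadjusted p below 0.05), and without the 2-month csPIMT-/- library 3 and 2. Without the 6-month control they numbered 3 and 5, and without the 6-month csPIMT-/- library 1 and 1. Stab1, a scavenger receptor, rose (0.99, adjusted p = 0.0297), as did Gas6, a ligand of receptors for dying cells (0.97, adjusted p = 0.0317). The median ratio of 6 over 2 months in the resident list was 1.98 in controls and 0.943 in csPIMT-/- hearts. With the GC trend subtracted, the median genotype ratio at 2 and 6 months was 2.10 and 1.56 for the general list. For the resident list it was 3.69 and 1.06. With that subtraction limma called 0 genes of either list (6 and 2 higher at an unadjusted p below 0.05).

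Complement genes and genes of antigen presentation were more often above 2-fold than below it. Of 12 complement genes, 10 were above 2 at 2 months and 8 at 6 months, when 1 was below 0.5. Over both ages 8 of 12 were called higher, beside 11.0% of all genes. C3, the central component, had ratios of 13.4 and 4.56 (log2 difference 2.97, SE 0.40, adjusted p = 0.0164). Of 11 antigen presentation and dendritic cell genes tested, 9 were above 2 at 2 months and 8 at 6 months, with 6 of 10 called higher over both ages. H2-Aa, a chain of the class II molecule, had ratios of 15.6 and 4.36 (3.04, adjusted p = 0.0183). Cd74, its invariant chain, had 9.77 and 3.61 (2.57, adjusted p = 0.0180). In the 2-month control H2-Aa had 425 and Cd74 552 normalized counts, against 1738 and 1979 in the 6-month control. With the GC trend subtracted, the median ratio at 2 and 6 months was 3.57 and 2.61 for complement and 5.98 and 3.04 for antigen presentation. With that subtraction limma called 0 genes of either list (9 and 7 higher at an unadjusted p below 0.05). Without the 2-month control, and with no age term, limma called 6 of 12 complement genes and 3 of 10 antigen presentation genes higher. Without the 2-month csPIMT-/- library it called 4 of 12 and 0 of 9, with 8 and 6 higher at an unadjusted p below 0.05. Without the 6-month control these calls were 8 of 12 and 6 of 10, and without the 6-month csPIMT-/- library 4 of 12 and 0 of 9 (7 and 3 at an unadjusted p below 0.05).

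The remaining leukocyte lists were less uniform. Of 18 genes shared by leukocytes, 8 were above 2 at 2 months and 3 at 6 months, and 5 of 18 were called higher, but 0 without the 2-month control, the 2-month csPIMT-/- library or the 6-month csPIMT-/- library (1, 7 and 1 at an unadjusted p below 0.05 by limma) and 3 without the 6-month control. Below 0.5 were 0 of these 18 at 2 months and 1 at 6 months. With the GC trend subtracted their median ratio was 1.81 and 1.21, and limma called 0 of them (5 higher at an unadjusted p below 0.05). Before that subtraction Coro1a, a regulator of actin, rose (1.11, adjusted p = 0.0437), and Lcp1, an actin bundler, had ratios of 1.46 and 0.860 (adjusted p = 0.665). Of 10 monocyte genes, 8 were tested at 2 months, with 5 above 2 and 2 below 0.5, and 10 at 6 months, with 5 above and 1 below. Ace, angiotensin-converting enzyme, of endothelium and some monocytes, had ratios of 3.34 and 6.66 (2.24, adjusted p = 0.0163), the 1 call of this list, which was lost without the 2-month control (adjusted p = 0.0597 by limma). Of the T cell genes, 5 of 15 were above 2 at 2 months and 9 of 16 at 6 months, when 2 were below 0.5. Over both ages 0 of 13 were called by limma, edgeR or DESeq2, nor had any an unadjusted p below 0.05. Cd4 had between 31.2 and 107 normalized counts and Cd28 between 33.3 and 157, so that none of the T cell genes named here was abundant. B cell genes gave 3 of 7 above and 1 below at 2 months and 2 of 6 above and 2 below at 6 months, with Cd79b and Blk at or under 142 normalized counts, and 0 of 6 called by limma or DESeq2, with 1 lower at an unadjusted p below 0.05, which edgeR called. NK and cytotoxic genes had 1 tested at 2 months and 2 at 6 months, all above 2, with Gzma at or under 13.6 normalized counts and Prf1 at or under 26.0, and none could be tested over both ages.

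Neutrophil genes gave 1 of 5 above 2 and 2 below 0.5 at 2 months and 7 of 8 above at 6 months, with 0 of 5 called over both ages by limma, edgeR or DESeq2 and 1 higher at an unadjusted p below 0.05. S100a9, a calcium-binding protein of neutrophils, had 68.4 and 31.7 normalized counts in the controls and 24.7 and 291 in the csPIMT-/- libraries. Csf3r, the receptor for G-CSF, had ratios of 1.76 and 3.09. Mast cell genes gave 3 above and 2 below of 5 at 2 months and 4 below of 5 at 6 months, with 2 of 5 called lower, among them Kit (-1.14, adjusted p = 0.0407), but 0 without any 1 of the 4 libraries (0 to 2 lower at an unadjusted p below 0.05 by limma), and Tpsb2 had ratios of 2.48 and 0.821. The CSF1 and IL34 genes had a median ratio of 1.84 at 2 months and 2.39 at 6 months, or 1.29 and 1.70 with the GC trend subtracted. Of these genes, 2 of 5 were above 2 at 2 months and 3 at 6 months. Of them 1 was called, Il34 (1.45, adjusted p = 0.0352), which was called only without the 2-month csPIMT-/- library when each library was left out in turn (adjusted p from 0.0475 to 0.126 by limma), and Csf2ra had ratios of 1.56 and 1.20. Lymphatic endothelial genes, which matter for Lyve1, gave 0 of 6 above at 2 months and 3 of 6 at 6 months, with 0 of 6 called by limma or edgeR, 2 called higher by DESeq2 and 2 higher and 1 lower at an unadjusted p below 0.05. Without the 2-month csPIMT-/- library limma called 3 of the 6 higher, and 0 without any other library (1 higher in each at an unadjusted p below 0.05). Flt4 and Reln had 6-month ratios of 2.88 and 7.46, against 1.32 and 1.58 at 2 months. Ccl21a of that list was at 0 in all 4 libraries.

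**Figure D5:**
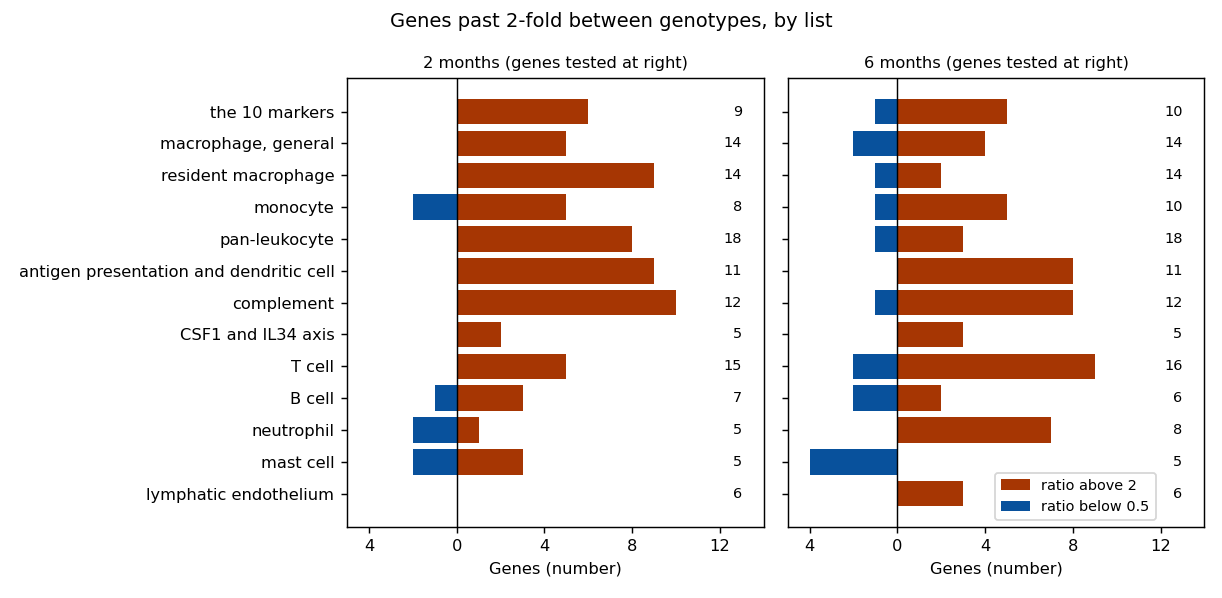
Number of genes with a ratio of csPIMT-/- over PIMT fl/fl above 2 (bars to the right) or below 0.5 (bars to the left) in each list at 2 and 6 months, with the number of genes tested at the right edge. Complement had 10 and 8 of 12 genes above 2, antigen presentation 9 and 8 of 11, and the mast cell list 4 of 5 below 0.5 at 6 months.

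Macrophages of the lung were also checked. Marco, a receptor of alveolar macrophages, had 10.4 and 8.79 normalized counts in the controls and 0 and 4.16 in the csPIMT-/- libraries. The alveolar macrophage list summed to 11292 and 10537 in the controls and to 3797 and 4439 in the csPIMT-/- libraries, most of it from Fabp4 (10296, 9937, 3225 and 3308), which capillary endothelium of the heart also makes. The lung list was highest in the 2-month csPIMT-/- library, where Bpifa1, an airway secretory protein, had 979 normalized counts, against 0 to 8.32 elsewhere. The difference was not confined to Bpifa1. Of 6 lung genes tested at 2 months, 5 were above 2 and 1 was below 0.5. Of the 10 in the list, 7 were at 0 in the 2-month control and 0 in the 2-month csPIMT-/- library. Summed thymus markers, which would accompany T cells of that organ, ranged from 134 to 271. Of these 9 genes, 2 to 5 were at 0 in each library, and only 1 reached 10 reads at 2 months. Fibroblast markers summed to 147589 to 276160 and endothelial markers to 55097 to 80473, with the 2-month control highest in both lists.

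By a rule based on the 4 libraries, the genes with a profile closest to the mean of the 10 were looked for among 12049 genes with a mean of at least 100 normalized counts. The distance was Euclidean, between log2(value + 1) profiles centred per gene. Among the nearest genes outside the set were 4831426I19Rik (0.0693), C5ar1 (0.0936), 9230112J17Rik (0.143) and Zfp956 (0.154). C5ar1, the receptor for complement fragment C5a, had 149 and 297 normalized counts in the controls and 333 and 500 in the csPIMT-/- libraries. With 4 libraries such profiles are not specific, since 793 genes outside the set were closer to the mean than the median of the 10 genes themselves, at 0.759.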

How the data were processed

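Total RNA of pooled hearts was sequenced, and 4 libraries were compared by genotype and age as the labels give them. The authors trimmed and filtered reads, aligned them with STAR to mm10, assigned them to genes with htseq-count, and used DESeq2 for differential expression. HTSeq 0.6.1p1, DESeq2 and mm10 are named in the submitters' processing notes. They deposited normalized counts, a signal per gene scaled by library size factors, headed as read counts in the file of the 6-month csPIMT-/- library but normalized like the rest. Whole reads were recovered by dividing by the value of 1 read, and 100% of values came out whole within 1e-06 reads. Columns of other samples numbered 0.

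The members and gene lists were chosen with earlier results of these data known. Ratios needed at least 10 reads in 1 of the 2 libraries, and called means above 2 or below 0.5. limma 3.58.1 (R 4.3.3) was fitted to log2(normalized count + 1) with a mean trend, age and genotype, for genes with at least 10 normalized counts in at least 2 libraries, with Benjamini-Hochberg adjustment of the p-values (threshold 0.05). The prior had 4.01 degrees of freedom. Fold changes on this scale understate those of low genes. edgeR 4.0.16 and DESeq2 1.42.0 on recovered reads, other scalings, filters, pseudocounts and controls were alternatives. GC content was that of the longest GENCODE M21 transcript, and its trend a lowess curve with a span of 0.3, with a GC value for 90.7% (2 months) and 90.6% (6 months) of the genes. Intervals used scipy 1.17.1. Named beside the members were the 2 most abundant genes of each list, the 5 genes of most similar profile and Tgs1, and any other gene was named after its values were seen. Of the genes this rule names, 2 are not reported here. Spi1 and Ly6g were not found by symbol. No sequencing batch is given in the sources used here. Precision is set by 29823073 to 40705783 reads per library and by 1 library per group.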

Additional observations from a re-analysis of the deposited data

Results flagged for a closer look

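For Mrc1 and 5 genes of the lists, the csPIMT-/- library differed from the PIMT fl/fl library in opposite directions at 2 and 6 months, with counting intervals that leave out 1 at both ages. The differences between the ages were not tested, since each rests on 1 library per genotype and age, and the intervals cover counting error only. Mrc1 had ratios of 0.931 at 2 months and 1.13 at 6 months, the smallest departures of the 6, and with the GC trend subtracted they were 1.75 and 2.41, both above 1. Lcp1 had ratios of 1.46 and 0.860, Csf1 of 1.84 and 0.859, and Cd4 of 1.82 and 0.650, each above 1 at 2 months and below 1 at 6 months, although Lcp1 was at 1.85 and 1.10 with the GC trend subtracted. S100a9 had ratios of 0.361 and 9.20. Nr4a1, an immediate early gene also used as a marker of patrolling monocytes, had ratios of 0.138 and 4.54, with 5101 and 595 normalized counts in the younger and older controls, against 704 and 2697 in csPIMT-/- hearts.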

How the results depend on the processing

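Under the other scalings the members kept their directions at both ages (TMM factors, size factors of the 2 libraries alone, scaling to the same number of reads), and the median of all genes moved by no more than 0.10 on the log2 scale. With that last scaling 1 member, Ptprc, was below 0.5 at 2 months. Against the control of the other age, 1 member was above 2 and 1 below 0.5 at 2 months, with Cd163 reversed at 0.702, and 8 were above and 0 below at 6 months, with Ptprc reversed at 1.02. With both controls averaged, 3 were above and 1 below at 2 months and 0 below at 6 months. With the whole counting interval past 2-fold, 3 members were above at 6 months, and 1687 and 1686 genes were above at 2 and 6 months. A minimum of 100 reads left 1724 genes above at 2 months. With the GC trend subtracted, 3 members were above and 0 below at 6 months, Ptprc was reversed at 1.31, and 1571 and 1800 genes were below 0.5 at 2 and 6 months.

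Over both ages, 1 member, Ptprc, was called lower with a pseudocount of 0.5 or 10, a minimum of 100 normalized counts, TMM or DESeq2. Members called higher numbered 3 with no age term. With no filter, with no mean trend and with the GC trend subtracted, 0 members were called higher, and 0 genes were called higher and 0 lower in all. At an unadjusted p below 0.05 these fits had 3, 5 and 7 members higher. Ptprc was reversed to a log2 difference of 0.46 with the GC trend subtracted. Leaving out each library in turn, with no age term, gave 0 to 5 members higher, 303 to 1107 genes higher and 483 to 1998 lower. Mrc1 was then between -0.27 and 0.34, Cd163 between -0.12 and 1.70 and Lyve1 between -0.21 and 1.50. Reversed among these were Mrc1 (-0.13) and Cd163 (-0.12) without the 2-month PIMT fl/fl library, and Mrc1 (-0.27) and Lyve1 (-0.21) without the 6-month csPIMT-/- library. The cause of these changes was not tested. No paired analysis was possible because each group holds 1 library and so no replicate number can pair libraries, and the age term alone sets libraries of the same age side by side. At the depth of these libraries, Cd3e, with 1 to 13 reads, allows no firm ratio.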
